A study of Mus musculus with 8 samples.

Results

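The regions described here had ATAC-seq peaks in freshly isolated satellite cells and in satellite cells cultured for differentiation, and no peak in cells isolated after injury. ATAC-seq tags accessible DNA with the Tn5 transposase. The series holds 8 libraries from hindlimb satellite cells of C57BL/6 mice, in 4 groups of 2. QSC were freshly isolated cells with no treatment, and ASC were isolated 2.5 days after an injury whose kind the labels do not give. LncMyod Control cells were cultured for differentiation with a control siRNA. LncMyod Knockdown cells shared the culture but received siRNA that targets the long noncoding RNA LncMyod, for 48 h before harvest. Culture was in F10 medium with horse serum, so the 4 cultured libraries share isolation, culture and siRNA treatment, and these cannot be told apart from differentiation. The labels give no age, no number of animals and no measure of the knockdown. Nor do they tie the replicates to separate mice or dishes, and p-values here cover no more than the spread among libraries, which may be technical.

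Peaks of all 8 libraries on chromosomes 1 to 19 were merged where they overlapped, which gave 139157 regions. A region counted as held by a library if it shared 1 bp or more with one of that library's peaks. The members were chosen by the presence or absence of peaks in 6 of the libraries. Both QSC libraries and both LncMyod Control libraries had to hold the region, and neither ASC library could. This rule found 2648 members, 1.9% of all regions. The peaks of QSC, ASC and LncMyod Control thus chose the members and support nothing about them. The LncMyod Knockdown libraries did not choose members, but their peaks entered the merging and so helped to set the limits of the regions. "Lost on activation" and "regained in culture" name the rule only, because the groups are separate cell preparations and not one culture followed over time.

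Satellite cells are the resident stem cells of skeletal muscle. They lie quiescent beside the myofibre, enter the cell cycle after injury and then differentiate and fuse. Accessible chromatin marks promoters and enhancers, and the set of accessible elements in a cell changes as transcription factors such as the myogenic basic helix-loop-helix (bHLH) proteins take up or leave their sites.

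The lists held 58791 to 93986 autosomal peaks per library and covered 41.7 to 63.0 Mb. ASC replicate 2 had the shortest list and LncMyod Knockdown replicate 1 the longest. The lists carry no read counts, so depth is unknown, and a missing peak does not show that a region was closed. Loci of satellite cell markers carried peaks in all 8 libraries. After scaling to the library's total, 8.49 to 13.0 kb were covered at Pax7 and 2.03 to 3.75 kb at Myod1. Not all marker loci were steady across groups. Cd34 had 5.31 and 4.75 kb in QSC and 1.24 to 2.45 kb in the other libraries, and Calcr was also highest in both QSC libraries. Myf5 had 4.67 to 5.01 kb in QSC and ASC and 2.62 to 4.01 kb in culture. In contrast, Myod1, Cdh15 and Vcam1 were lowest in both QSC libraries. At Pax7 and Itga7 the QSC libraries stood neither wholly above nor wholly below the others. At the loci of 20 leukocyte markers the covered length summed to 20.3 and 20.6 kb in QSC, 27.1 and 29.5 kb in ASC, 35.0 and 34.4 kb in LncMyod Control and 30.9 and 41.8 kb in LncMyod Knockdown. Whether other cells had a part in the groups' peaks was not tested. None of the 89 regions at leukocyte marker loci and none of the 75 at glial marker loci was a member. Members made up only 1.78% of the regions at all protein-coding loci, so their absence among so few regions says little.

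Few members lay at promoters, and many of those that did held an E-box of the CAGCTG form. An E-box is the site of bHLH factors, and the CAGCTG form is preferred by MyoD and myogenin dimers. Of 31396 promoter windows of 300 bases from RefSeq (GRCm38.p6, with the coordinates of mm10), 41 lay wholly inside 38 members. Among these were 18 windows of protein-coding genes in 16 members. The windows below belong to the 4 such members that ranked highest by their weakest QSC or LncMyod Control peak. They are shown because the sequence shared by many member promoters, CAGCTG, can be read in them, and it stands in capitals. Each runs 5′ to 3′ on the gene's strand, from 250 bases before the start to 50 after it.

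Ogn (chr13:49607765-49608064, + strand): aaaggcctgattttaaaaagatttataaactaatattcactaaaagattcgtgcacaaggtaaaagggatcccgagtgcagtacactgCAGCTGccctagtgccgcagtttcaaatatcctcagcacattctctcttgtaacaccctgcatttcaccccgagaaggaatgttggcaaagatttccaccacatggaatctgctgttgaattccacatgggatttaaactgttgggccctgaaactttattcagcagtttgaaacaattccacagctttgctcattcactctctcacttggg
Rbfox1 (chr16:7069585-7069884, + strand): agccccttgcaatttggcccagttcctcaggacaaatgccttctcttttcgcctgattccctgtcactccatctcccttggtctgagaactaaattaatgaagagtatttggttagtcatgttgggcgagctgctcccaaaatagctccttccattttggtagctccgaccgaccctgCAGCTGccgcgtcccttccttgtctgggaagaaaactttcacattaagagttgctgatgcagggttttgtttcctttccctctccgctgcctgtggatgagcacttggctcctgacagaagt
Pla2g5 (chr4:138819208-138819507, - strand): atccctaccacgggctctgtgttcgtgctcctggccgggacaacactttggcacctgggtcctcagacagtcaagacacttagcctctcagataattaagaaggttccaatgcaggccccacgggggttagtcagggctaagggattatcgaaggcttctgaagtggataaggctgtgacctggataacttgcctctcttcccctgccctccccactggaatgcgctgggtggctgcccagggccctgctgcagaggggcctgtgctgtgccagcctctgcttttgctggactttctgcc
Palld (chr8:61902658-61902957, - strand): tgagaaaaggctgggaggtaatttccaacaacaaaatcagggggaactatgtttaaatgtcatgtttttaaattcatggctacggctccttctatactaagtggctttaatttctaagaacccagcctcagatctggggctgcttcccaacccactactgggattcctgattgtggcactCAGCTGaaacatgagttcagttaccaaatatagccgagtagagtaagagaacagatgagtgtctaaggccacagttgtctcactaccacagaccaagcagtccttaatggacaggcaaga

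Ogn codes for osteoglycin, a small proteoglycan of the extracellular matrix. Its window has 1 CAGCTG, beginning at base 89, and 4 E-boxes of the general form CANNTG in all. Rbfox1, which codes for a splicing factor active in muscle and brain, has 1 CAGCTG at base 179. Palld codes for palladin, a scaffold of actin bundles, and has its CAGCTG at base 181. Pla2g5, a secreted phospholipase, has none and only 1 E-box of any form. Of the 16 members with a protein-coding window, 7 held a CAGCTG there.

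The Ogn member, chr13:49607526-49608151, also lies within the Cenpp gene. Fold enrichment over the local background, the authors' value for each peak, was 4.02 and 3.99 in QSC replicates 1 and 2, 11.5 and 6.57 in LncMyod Control, and 8.20 and 5.97 in LncMyod Knockdown. The Rbfox1 member, chr16:7069317-7070104, had 3.82 and 3.83 in QSC, 7.26 and 7.74 in LncMyod Control and 6.61 and 5.58 in LncMyod Knockdown. At Palld, chr8:61902487-61903615, the values were 3.62 and 3.25, 7.67 and 7.02, and 6.43 and 5.71 in the same order. In these 3 members the cultured libraries did not overlap the QSC libraries. Each fold is relative to its own library, so these numbers do not measure a change between groups. Over all 2648 members, ranked by percentile of fold within each library, both LncMyod Control peaks stood above both QSC peaks in 1032 (39.0%). Both QSC peaks stood above both LncMyod Control peaks in 725 (27.4%), and the groups overlapped in 891. The Pla2g5 member, chr4:138818971-138819612, overlapped between groups, with 4.65 and 4.58 in QSC, 4.07 and 4.60 in LncMyod Control and 3.20 and 4.46 in LncMyod Knockdown.

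Motif letters were counted on both strands of the windows, without regard to overlap between motifs, so that a CAGCTG also counts as an E-box of the general form. An E-box of any form stood in 35 of the 41 member windows (85.4%) and in 72.2% of all windows. The CAGCTG form stood in 19 of the 41 member windows (46.3%), beside 16.3% of all promoter windows and 16.1% of the 12384 windows inside regions held by all QSC, ASC and LncMyod Control libraries. The share was 39.3% of 89 windows in regions held by both LncMyod Control libraries and no QSC or ASC library, termed regions of control alone. It was 33.6% of 125 windows in regions of ASC and LncMyod Control without QSC. It was 13.3% of 75 windows in regions of QSC alone, those that both QSC libraries and no ASC or LncMyod Control library held. An E-box of any form stood in 88.8% of the windows in regions of control alone and 86.7% in those of QSC alone, close to the member share. The member share of the CAGCTG form stood nearer to both classes held in culture without QSC than to QSC alone or to the commonly held regions, and these differences were not tested. A match is only a run of letters, and member windows were also poorer in G and C than those of commonly held regions, with a median of 51.3% against 63.3%.

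The core of the TEAD site, GGAATG, was found in 34.1% of member windows, 22.5% of windows in regions of control alone, 9.33% in regions of QSC alone and 14.6% of all windows. TEAD factors act with the Hippo effectors YAP and TAZ and bind many muscle promoters. The nuclear factor I core TTGGCA was in 26.8% of member windows, 38.7% in regions of QSC alone, 14.6% in regions of control alone and 14.1% of all. A steroid receptor pattern, ACANNNTGT, was in 7 of the 41 member windows, 17.1%, beside 6.90% of all. The Runx core TGTGGT was in 24.4% against 16.7% of all, and the RBPJ core TGGGAA of the Notch pathway in 31.7% against 25.3%. Neither was particular to members. The Runx core was in 32.6% of windows in regions of control alone and 17.3% in those of QSC alone, and the RBPJ core in 21.3% and 30.7%. The GC box GGGCGG of Sp and Klf factors was in 14.6% of member windows, 36.0% of all windows and 69.6% of those in commonly held regions. It was as rare in regions of control alone, at 10.1%, and of QSC alone, at 17.3%. The AP-1 site TGANTCA (9.76% against 7.84%), the CACCTG form of the E-box (14.6% against 20.5%) and the MEF2 core TAAAAATA (2.44% against 2.63%) stood nearer to all windows or below them. CACCTG was in 30.3% of windows in regions of control alone and 8.0% in those of QSC alone, and the MEF2 core in 12.4% and 2.67%. In both, members stood nearer to QSC alone. AP-1, with 7.87% and 17.3%, put them nearer to control alone, so the nearer class differed by motif. No member window held the forkhead pattern TGTTTAC or the palindrome of early B cell factors. With 41 windows, of which several share a member, these shares are descriptions.

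**Figure D1:**
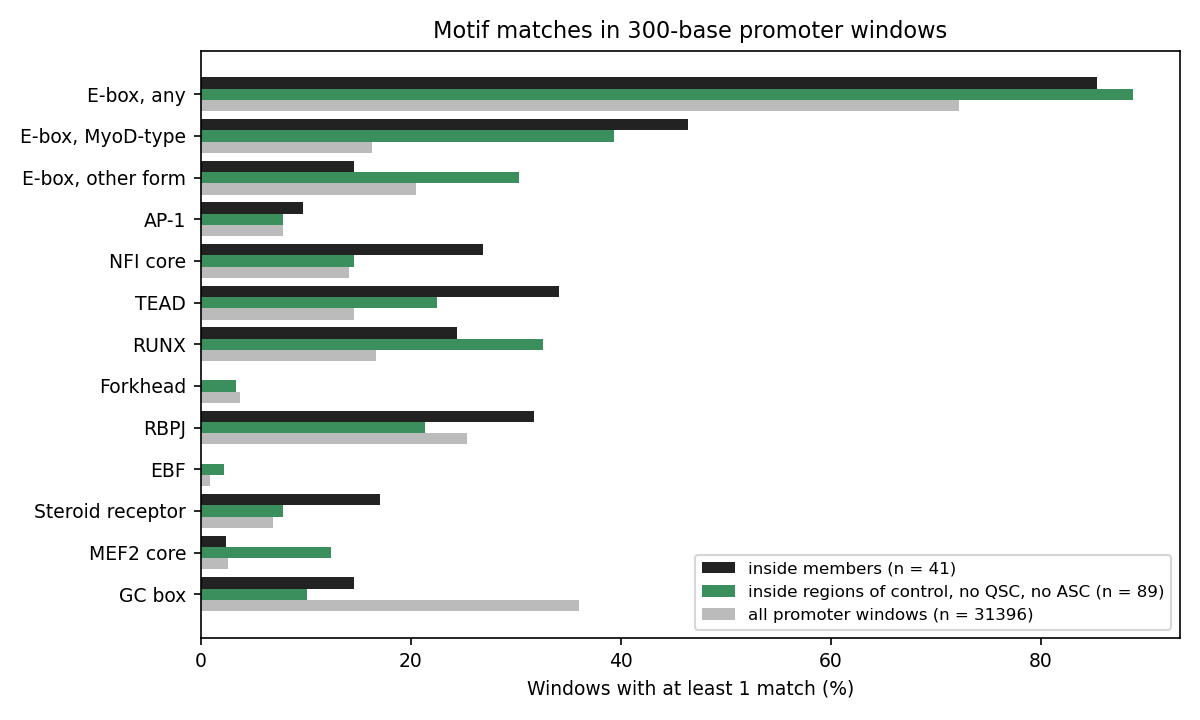
Share of 300-base RefSeq promoter windows with at least 1 match to each motif, in percent, for windows inside members (black), inside regions held by both LncMyod Control libraries and no QSC or ASC library (green), and for all windows (grey). The MyoD-type E-box reached 46.3% in members, 39.3% in regions of control alone and 16.3% of all windows.

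Most members lay away from gene starts. Of the 2529 members on chromosomes with promoter windows, 101 (3.99%, 95% Clopper-Pearson interval 3.26 to 4.83%) lay within 1 kb of a RefSeq start, and 32 within 1 kb of a protein-coding start. The share was 31.7% for the 36114 regions that all QSC, ASC and LncMyod Control libraries held, and 11.4% for all regions. It was 2.88% for the 12088 regions held by both LncMyod Control libraries and no QSC or ASC library, and 2.9% for the 7955 held by both QSC libraries alone. The 95% intervals were 2.58 to 3.20% for the first of these and 2.53 to 3.30% for the second, and they cover counting error only. Members thus had a somewhat higher share than regions of control alone over all RefSeq starts. At protein-coding starts there was no such excess, with 32 of 2529 members and 148 of 11670 regions of control alone. Members were also wider, with a median of 709 against 474 bp, and the part of width was not tested. Regions of ASC and LncMyod Control without QSC had 5.09%. Inside a gene body lay 1694 members, 64.0%, beside 67.8% of all regions. The other 954 had a median distance of 13.7 kb to the nearest gene, and 86 members were over 100 kb from any gene.

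Member regions had a median width of 709 bp, with the middle 50% of them between 497 and 1075 bp and a range of 238 to 3183 bp. Commonly held regions had a median of 1128 bp and regions of control alone 474 bp. The nearest ASC peak was a median of 6.33 kb away, and 4.42% of members had one within 1 kb. The next member was a median of 139 kb away, and 208 members (7.85%) had another within 10 kb. These values were 36.6 kb and 20.2% for regions of control alone and 37.1 kb and 20.8% for regions of QSC alone, both more numerous classes.

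The rule requires the QSC and LncMyod Control peaks to fall in 1 merged region and so nearly fixes their overlap, which is given as a description. In 2517 members, 95.1%, the strongest QSC and LncMyod Control peaks overlapped in every pairing of libraries. Their centres were a median of 68.5 to 73.5 bp apart, against 51 bp between the QSC libraries and 32.5 bp between the LncMyod Control libraries. In LncMyod Knockdown, which the rule used only in the merging, the centres lay 70.5 to 76 bp from those of QSC where a peak was present.

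Member peaks were weaker than the typical peak of their library. The median fold enrichment of members was 3.48 and 3.27 in QSC and 3.95 and 3.60 in LncMyod Control, where all peaks had medians of 3.90, 3.76, 4.31 and 4.0. Ranked within the library, the median member stood at percentile 37.9 and 34.3 in QSC and 41.6 and 39.8 in LncMyod Control. In LncMyod Knockdown the members held stood at 49.1 and 47.5, close to the middle of the list. All 4 choosing libraries gave a −log10 q of at least 2 in 2058 members (77.7%), and of at least 5 in 410 (15.5%).

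**Figure D2:**
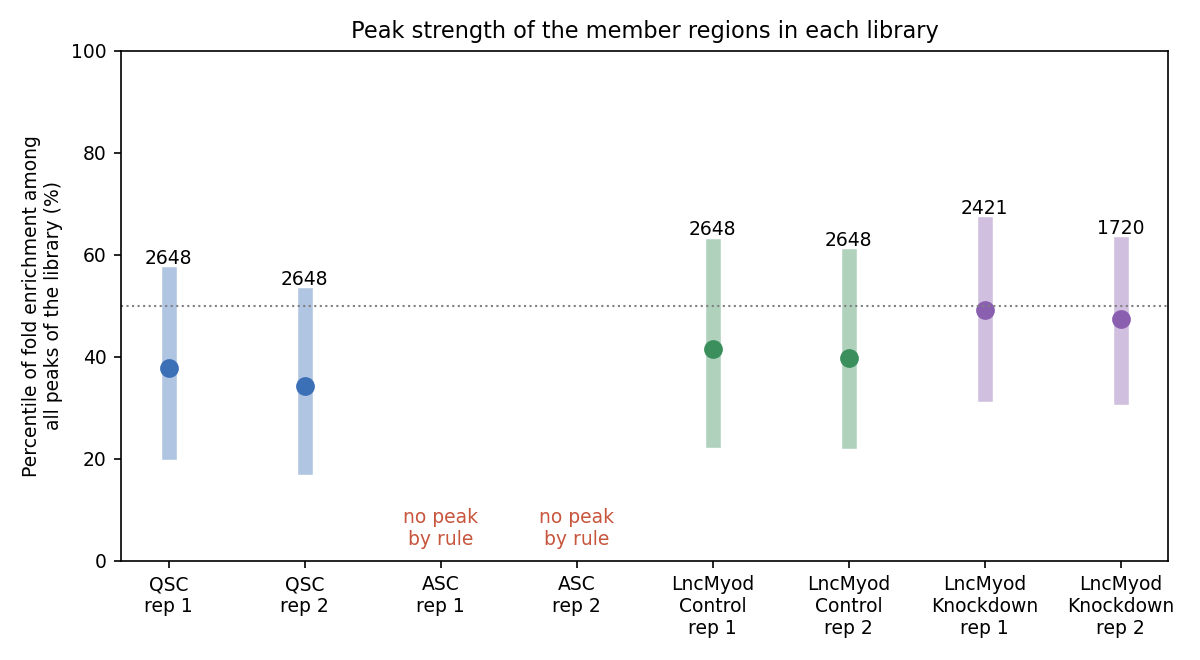
Rank of member peaks among all autosomal peaks of their library by fold enrichment, in percentiles, with a point at the median and a bar over the middle 50% of members. Numbers above the bars count members held, and the ASC libraries have none by the rule. Medians lie between 34.3 and 49.1, below the dotted line at percentile 50.

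The edge of the rule runs through weak ASC peaks. All 4 QSC and LncMyod Control libraries held 42920 regions, of which both ASC libraries held 36114. Another 3718 were held by ASC replicate 1 only and 440 by ASC replicate 2 only. In those 3718 the ASC replicate 1 peak had a median fold of 3.16 and stood at percentile 29.3 of its list. Just outside the rule lay strong elements with 1 weak ASC peak. A region in Plxdc2, chr2:16491241-16491809, had folds of 9.29 and 9.40 in QSC and 10.6 and 9.26 in LncMyod Control, with 3.44 in ASC replicate 1 and no peak in ASC replicate 2. A region in Ptprg, chr14:12184959-12185552, had 3.39 in ASC replicate 1. A further 2667 regions without an ASC peak were held by only 3 of the 4 other libraries. Just inside lay members as weak as one in Mroh2a and Hjurp, chr1:88259236-88260630, with 1.88 and 1.92 in QSC and 1.68 and 1.65 in LncMyod Control. One in Tef, chr15:81806634-81806889, had 1.80 and 1.80, then 2.14 and 2.11, and no peak in either LncMyod Knockdown library.

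Leaving 1 library out of the rule showed how far its partner and the others foretold it. QSC replicate 1 held 84.3% of the 3142 regions that met the rule without it, and QSC replicate 2 72.5% of 3651. LncMyod Control replicate 1 held 84.6% of 3130, and replicate 2 79.4% of 3336. Where the partner library lacked the region and the other choosing libraries were as in the rule, these shares were 3.93 to 7.96%. The ASC side was less even. ASC replicate 2 held 14.2% of 3088 regions that met the rule without it, but ASC replicate 1 held 58.4% of 6366. Without ASC replicate 1 the rule therefore gave 6366 members in place of 2648, so the size of the set rests on that library.

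The strongest members, ranked by the weakest of their 4 choosing peaks, were mostly intergenic. The first lay in Dytn, which codes for dystrotelin, a relative of dystrophin, at chr1:63628147-63628648. It had folds of 7.79 and 6.75 in QSC, 14.0 and 11.6 in LncMyod Control and 9.53 and 8.12 in LncMyod Knockdown. All 4 cultured values lay above both QSC values, on scales that belong to each library. The second, chr12:9077572-9078242, was 41178 bp from Ttc32, with 7.69 and 7.81 in QSC, 7.42 and 8.47 in LncMyod Control and 6.05 and 4.59 in LncMyod Knockdown. The third, chr10:107171978-107172689, was 48217 bp from Acss3, an acyl-CoA synthetase gene, with 6.47 and 7.85, 7.70 and 7.18, and 7.66 and 5.81 in the same order. In both, QSC and LncMyod Control overlapped. A member 547089 bp from Cited2, a transcriptional coregulator gene, at chr10:17175153-17176139, had 8.55 and 5.83, 9.07 and 8.01, and 7.27 and 5.12. Its nearest ASC peak was 132 kb away, whereas the member nearest N6amt1, chr16:87261513-87262034, had an ASC peak at 1.01 kb. The others lay nearest Fbxl17, Rasa1, Ripk2 and Pja2 or in Babam2. All 10 were also held by both LncMyod Knockdown libraries, which did not choose them. The same was true of all 162 members whose weaker LncMyod Control peak stood above percentile 80. Of regions of control alone at that strength, knockdown replicates 1 and 2 held 100% and 97.7%.

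**Figure D3:**
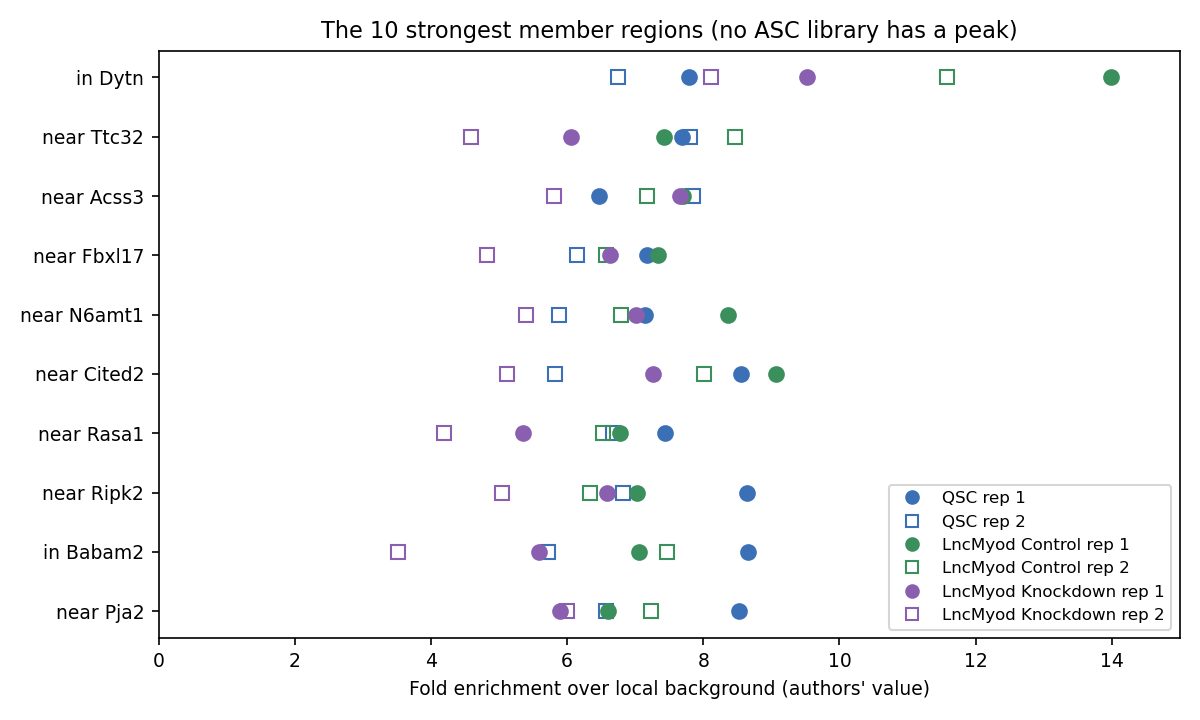
Fold enrichment over the local background, on a linear axis, of the 10 strongest members in the 6 libraries that can hold them, with filled circles for replicate 1 and open squares for replicate 2. Every one has a peak in all 6, and the Dytn member reaches 14.0 in LncMyod Control replicate 1.

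LncMyod Knockdown libraries were cultured like the control libraries. The knockdown libraries show how far members recur in libraries whose peaks entered the merging but did not choose them. Replicate 1 held 2421 of the 2648 members (91.4%) and replicate 2 held 1720 (65.0%), a mean of 78.2 ± 18.7% (SD, n = 2). Both held 1669 members (63.0%), beside 46.1% of all merged regions. Replicate 1 alone held 752, replicate 2 alone 51, and neither 176 (6.65%). Most members thus had a peak in both sets of cultured cells, with a wide spread between the knockdown libraries. The shorter list of replicate 2, with 78429 peaks against 93986, moved with its lower share. With lists of equal length the mean share was 80.3% of 1701 members. The part of list length in the gap between the replicates was not tested.

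Regions with other histories differed in that share. Regions of control alone were held at 88.6% and 57.1% by the knockdown libraries, regions of ASC and control without QSC at 97.8% and 85.6%, and commonly held regions at 99.6% and 96.2%. Regions of QSC alone were held at 7.97% and 4.09%. Members exceeded regions of control alone by 2.85 points in replicate 1 and 7.89 points in replicate 2, a mean of 5.37 ± 3.56 (SD, n = 2). With 2 libraries an exact two-sided sign-flip test cannot give a p under 0.5, so the difference is a description. It was 11.6 and 10.3 points with the set chosen without LncMyod Control replicate 1 or 2, and 3.20 points with lists of equal length.

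The knockdown share rose with the strength of the control peak. Where the weaker control peak stood below percentile 20, the knockdown libraries held 81.3% and 46.0% of 744 members and 77.2% and 39.3% of 3931 regions of control alone. Between percentiles 40 and 60 they held 97.4% and 74.6% of 583 members and 97.1% and 69.5% of 2514 regions of control alone. Above percentile 80 they held all 162 members, and 100% and 97.7% of 576 regions of control alone. Replicate 2 held more of the members in all 5 bins. Among regions 464 to 614 bp wide the order turned, with 90.5% and 66.5% of members against 93.8% and 68.8% of regions of control alone. It also turned among the widest, from 1183 bp, with 92.3% and 71.6% against 95.5% and 76.9%, and in replicate 2 from 614 to 833 bp, with 69.9% against 70.2%. Width includes the knockdown peaks themselves.

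**Figure D4:**
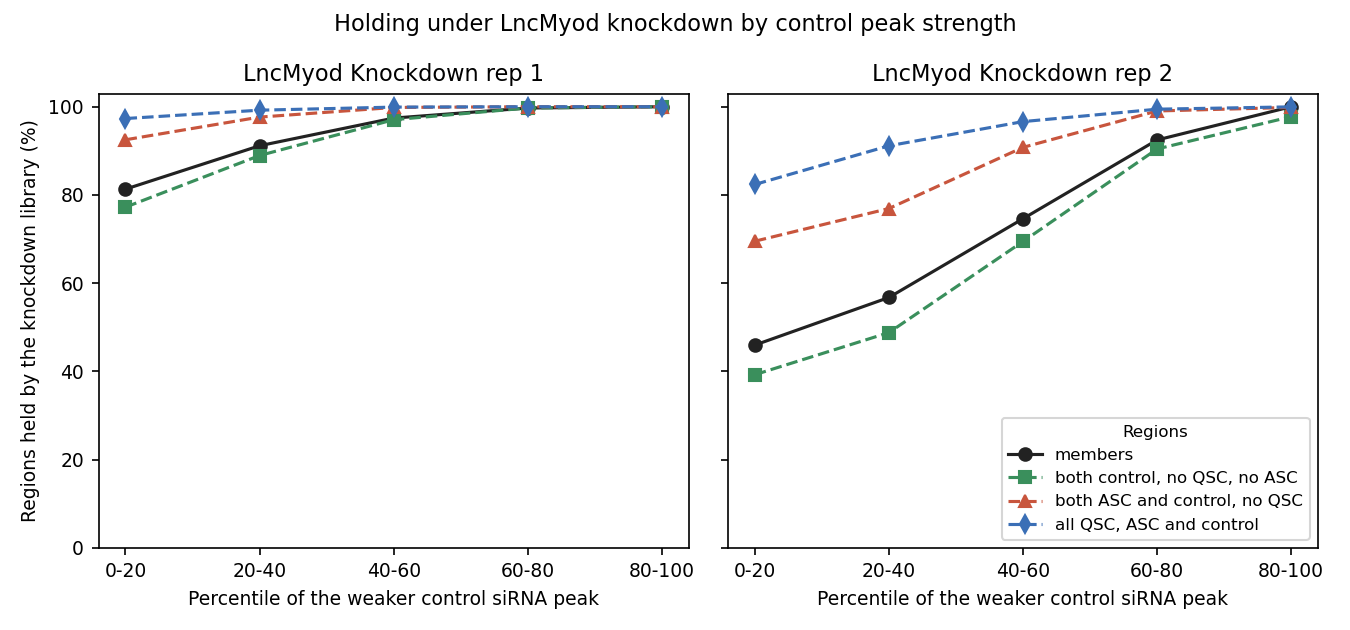
Share of regions held by each LncMyod Knockdown library, in percent, in 5 bins of the within-library percentile of the weaker of both LncMyod Control peaks, for members (black) and 3 other region classes. In replicate 2 members run from 46.0% in the weakest bin to 100% in the strongest and lie above regions of control alone in each bin.

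The 176 members that neither knockdown library held were weaker in control, but not in QSC, than members held by both. Their median percentiles were 23.6 and 21.2 in LncMyod Control, against 51.3 and 50.3 for members held by both. In QSC they were 42.8 and 35.7, against 37.5 and 33.6. The strongest of them lay in Wdhd1, a replication factor gene, at chr14:47258886-47259388, with folds of 4.83 and 4.29 in QSC and 4.37 and 4.57 in LncMyod Control. The next lay in Mef2a, which codes for a transcription factor of muscle differentiation, at chr7:67259897-67260200, with 5.43 and 3.67 in QSC and 4.67 and 4.26 in LncMyod Control. The third, chr9:33260222-33260705, lay in the noncoding gene Gm32171, with 3.98 and 3.76, then 4.07 and 4.50.

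Members were assigned to a protein-coding gene when they lay in its body or within 10 kb of it, which does not show that they regulate it. A total of 1603 of 20665 loci held at least 1 member (7.76%), 273 held at least 2 and 74 at least 3. These were long loci, with a median of 94.6 kb and 11 regions of any class, against 37.5 kb and 4 regions for all protein-coding genes. Members made up 1.78% of the regions in all protein-coding loci. Long loci hold more regions, so the genes named below lead partly by size, and the share of each gene's regions is given.

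Nav2, which codes for a neuron navigator protein, held the most, 7 members of 114 regions over 671 kb. Pde1c, a calcium and calmodulin dependent phosphodiesterase, held 6 of 34. Dgkg, a diacylglycerol kinase, held 5 of 20 and Meis1, a homeodomain factor, 4 of 19, the highest shares of the 20 leading genes at 25% and 21.1%. Hmcn2, a hemicentin of the extracellular matrix, held 5 of 37, Palld 5 of 63, Btbd9 5 of 45 and Cdk14, a cyclin-dependent kinase, 5 of 46. The other leading genes had 4 each. They were the adhesion gene Ncam1, the laminin gene Lama2, the Notch coactivator Maml2, the E protein Tcf4, the forkhead factor Foxp1, the Wnt5a receptor Ror1, and Mtss1, Fndc3b, Gabbr2, Tnik, Zfp536 and Pde10a. Around members, Ror1 had 9 regions of QSC alone and none of control alone, whereas Ncam1 had 2 and 11. Meis1 had none of either.

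**Figure D5:**
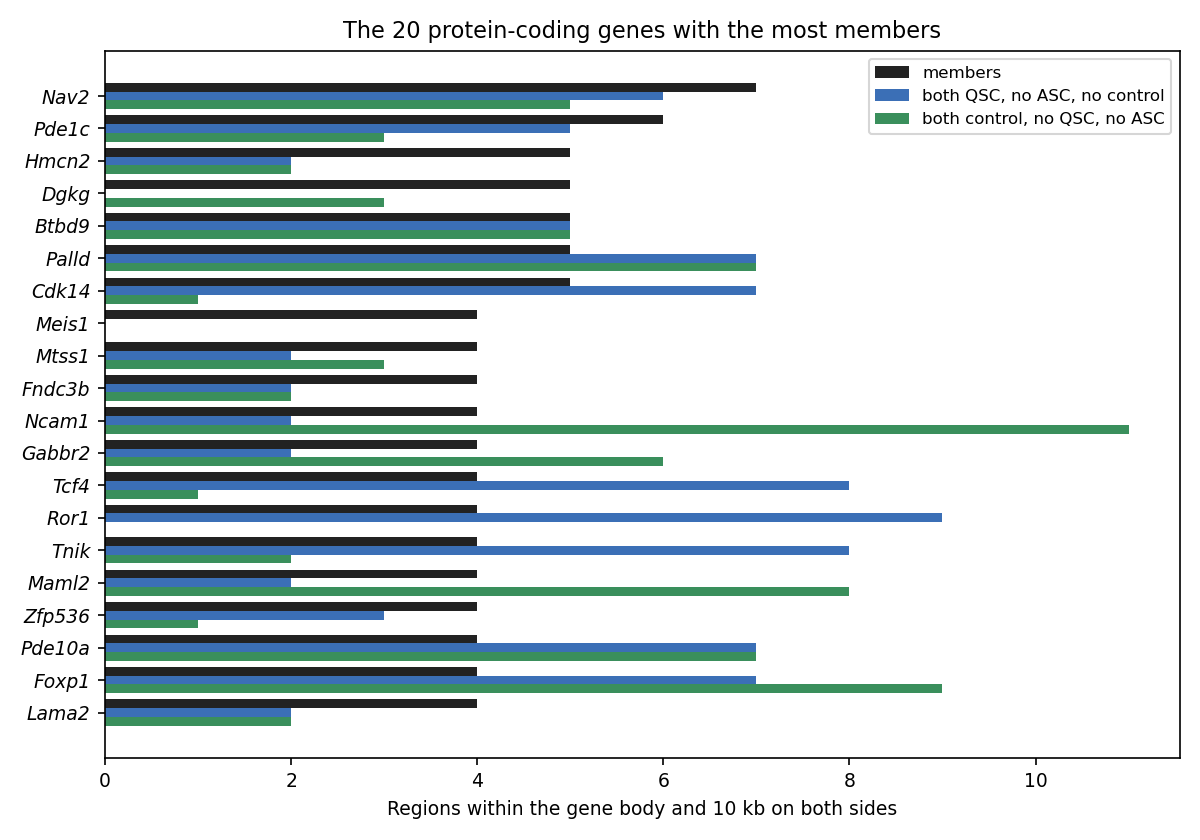
Number of regions of 3 classes in the loci (gene body with 10 kb on both sides) of the 20 protein-coding genes with the most members, on a linear axis. Nav2 leads with 7 members, and the classes beside them differ, as in Ror1 with 9 regions of QSC alone and Ncam1 with 11 of control alone.

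In Pde1c the 6 members did not share one profile. At chr6:56344732-56345583 the folds were 3.59 and 3.86 in QSC, 9.61 and 8.94 in LncMyod Control and 7.05 and 6.65 in LncMyod Knockdown. At chr6:56130595-56132319, elsewhere in the same gene, they were 5.14 and 4.69 in QSC and 4.10 and 3.13 in LncMyod Control, with no knockdown peak. The first thus kept its peak in both cultured groups, while the second had none in either knockdown library. In Dgkg, a member at chr16:22602356-22602971 had 7.21 and 7.13 in QSC, 4.91 and 4.15 in LncMyod Control and 3.32 in LncMyod Knockdown replicate 1 alone. A second Dgkg member, chr16:22633003-22633756, had 6.57 and 6.17, 5.75 and 5.56, and 5.63 in the same libraries. Of the 5 Dgkg members 2 were held by both knockdown libraries.

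In Nav2 the 7 members ranged from 2.47 to 4.76 in QSC and from 2.44 to 6.11 in LncMyod Control, and both knockdown libraries held 4. All 4 Foxp1 members and all 4 Maml2 members were held by both knockdown libraries, but only 1 of 4 in Ncam1. The strongest Ncam1 member by QSC fold, chr9:49722663-49724193, had 5.69 and 5.12 in QSC and 3.27 and 2.98 in LncMyod Control, with 2.89 in knockdown replicate 1 only. In Foxp1, chr6:99463877-99465141 had 3.38 and 3.13 in QSC, 7.83 and 6.06 in LncMyod Control and 5.74 and 6.12 in LncMyod Knockdown.

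The lists below hold genes of the muscle lineage and its surroundings, and 523 of their 528 entries matched autosomal protein-coding genes. The lists were chosen with earlier results of these data known, so the counts of each class at their loci are descriptions. At 29 loci of genes known from quiescence, 16 of 558 regions were members (2.87%), 11 of which both knockdown libraries held. They lay in 8 genes, led by Tcf4 and Tenm4 with 4 each and Nfix and Col5a1 with 2 each. Tcf4 pairs with myogenic bHLH factors, Nfix codes for a nuclear factor I protein of fetal myogenesis, and Col5a1 for a collagen V chain. A Nfix member, chr8:84712109-84712859, had 5.88 and 5.26 in QSC, 4.54 and 3.84 in LncMyod Control and 3.81 and 3.60 in LncMyod Knockdown. A Tenm4 member, chr7:96303264-96304448, had 2.09 and 2.34, 5.41 and 4.77, and 4.66 and 3.99 in the same order. Beside the members, these loci held 59 regions of QSC alone and 27 of control alone.

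At 34 loci of the myogenic program the balance of the other classes was the other way, with 47 regions of control alone and 20 of QSC alone, and 9 of 380 regions were members (2.37%). They lay in 5 genes, among them Myog, Megf10, Tead1 and Eya4 with 2 each. Myog codes for myogenin, the bHLH factor of terminal differentiation. Its members lay 4689 bp and 9972 bp outside the gene and inside the neighbouring gene Ppfia4, so that they cannot be assigned to either. The nearer, chr1:134297237-134297649, had folds of 5.12 and 4.39 in QSC, 3.67 and 3.46 in LncMyod Control and 2.68 and 3.13 in LncMyod Knockdown. The farther, chr1:134302520-134302943, had 3.57 and 2.97, 5.20 and 3.35, and 4.28 and 3.80. Both were held in every library of the 3 groups. A Tead1 member, chr7:112752312-112754020, had 4.04 and 4.60, 4.88 and 3.86, and 3.09 and 3.04.

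Contractile loci held 10 members of 420 regions (2.38%) in 8 of 45 genes, with Tpm3 and Ttn at 2 each and Lmod2 and Myh4 at 1. These code for a tropomyosin, titin, a leiomodin and a fast myosin heavy chain. Genes of excitation-contraction coupling held 8 of 327 (2.45%) in 6 of 26 genes. Trdn, which codes for triadin of the calcium release complex, had 3 members among only 9 regions, and both knockdown libraries held all 3. The Trdn member at chr10:33253257-33254744 had 4.45 and 3.72 in QSC, 6.00 and 5.44 in LncMyod Control and 3.62 and 3.80 in LncMyod Knockdown. Kcnj11, Jph1 and Stim1 had 1 each.

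In the Notch pathway, which maintains quiescence, 7 of 276 regions were members (2.54%). Maml2 had 4 of them, and Heyl, Jag1 and Dtx4, a target, a ligand and a regulator, had 1 each. Wnt, BMP and TGF-beta genes held 7 of 455 (1.54%), with 2 in Tgfbr1 and 1 each in Tgfb2, Lrp5 and Smad3 among the genes named. Tgfbr1 codes for the type I TGF-beta receptor, and its 2 members were among only 4 regions. At chr4:47399194-47400212 the folds were 3.37 and 3.00 in QSC, 9.70 and 6.86 in LncMyod Control and 7.54 and 5.32 in LncMyod Knockdown. At chr4:47407116-47407577 they were 6.11 and 6.35 in QSC, 5.21 and 3.64 in LncMyod Control and 4.05 in knockdown replicate 1 alone. Growth factor receptor and Sprouty loci held 10 of 298 (3.36%), in 9 of 26 genes, with 2 in Igf1r and 1 each in Igf2, Pdgfrb and Fgf2.

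Extracellular matrix and integrin loci held 17 of 589 (2.89%), in 12 of 47 genes. Lama2, which codes for the laminin chain of the myofibre basement membrane, had 4 of its 28 regions, and Svep1 and Itga9 had 2 each. In Lama2, chr10:27321362-27323002 had 4.66 and 5.32 in QSC, 6.44 and 4.42 in LncMyod Control and 5.03 and 3.29 in LncMyod Knockdown. Both knockdown libraries held 2 of the 4. Axon guidance genes held 16 of 609 (2.63%), with 3 in Plxna2 and 2 each in Sema6a, Epha4 and Slit3. Cadherin and adhesion loci held 11 of 654 (1.68%), channel loci 8 of 718 (1.11%, with 3 in Kcnn3), and loci of NFI, Runx, Ebf, Fox and AP-1 factors 11 of 393 (2.80%). Cell cycle loci held 3 of 168 (1.79%), at Pcna, Ccne1 and Ccnd3. Against the 1.78% over all protein-coding loci, the list shares ran from 0 to 3.70%.

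Loci of markers of other cells held few members in number, but their shares were not all low. Endothelial markers had the highest share of the 19 lists. Fibroadipogenic markers also stood above the 1.78% over all protein-coding loci and the 2.87% of quiescence loci. Fibroadipogenic markers had 4 of 130 regions (3.08%) at Osr1, Hic1, Dpp4 and Adam12, and endothelial markers 5 of 135 (3.70%) at Eng, Cdh5, Vwf and Tek. Mural markers had 1 of 64 (1.56%), at Acta2, and hepatocyte genes 1 of 42 (2.38%), at Ttr. Covered length at the 15 fibroadipogenic loci summed to 52.1 and 53.8 kb in QSC, 48.3 and 54.2 kb in ASC, 45.9 and 48.1 kb in LncMyod Control, and 46.4 and 46.9 kb in LncMyod Knockdown. At the 15 endothelial loci it was 45.4 to 52.7 kb in the 8 libraries. At the 9 mural loci it was 28.9 and 27.7 kb in QSC, 19.1 and 17.7 kb in ASC, 23.6 and 23.7 kb in LncMyod Control and 23.9 and 22.9 kb in LncMyod Knockdown, so that ASC was lowest, as in the rule for members. At 10 glial loci ASC was highest, with 37.0 and 39.3 kb against 27.8 to 31.2 kb in the other 6 libraries. The part of other cells in the members was not tested.

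Whole loci were compared by limma on the log2 of the covered length (scaled to each library's total, plus 500 bp), with Benjamini-Hochberg adjustment over 27938 loci at a threshold of 0.05. LncMyod Knockdown differed from LncMyod Control at 6 loci, all higher (0.0215%). None of the 1603 loci with a member was among them, and 182 had an unadjusted p under 0.05 in limma, as did 1729 of 17240 protein-coding loci on chromosomes 1 to 19. The median difference was −0.10 for loci with a member and −0.05 for those 17240. Both LncMyod Control libraries chose the members, and the knockdown libraries did not. The choice itself thus favours lower values in knockdown at loci with a member, also at those named in the next paragraph. The count over all loci was 343 without knockdown replicate 1, with 6 loci that hold members, 105 without knockdown replicate 2 and 0 without either control replicate. Over the gene body alone it was 50, with 3 loci that hold members.

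At Ncam1 the scaled covered length was 24.3 and 27.2 kb in LncMyod Control and 20.8 and 12.4 kb in LncMyod Knockdown. The knockdown libraries lay below the control libraries but apart from each other, and the difference of −0.66 ± 0.22 (SE, log2 scale) had a limma adjusted p of 0.400. Lama2 had 9.05 and 8.49 kb in control and 7.32 and 4.62 kb in knockdown, and Maml2 14.0 and 17.8 kb against 12.3 and 9.92 kb. Their limma adjusted p-values were 0.435 and 0.516.

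LncMyod Control against QSC gave 2783 higher loci (9.96%) and 1943 lower (6.95%) of 27938 in limma. These libraries chose the members, so the values are a description. Of the 1603 loci with a member 128 were higher and 186 lower, and of the 74 with 3 or more 2 were higher and 17 lower. All 17240 protein-coding loci gave 1705 higher and 917 lower. The order of the 1603 turned to 81 higher and 62 lower without scaling to total covered length, where all loci gave 2174 and 1014. Left-out libraries lowered the count from 4726 loci to 1180 and 1038 without LncMyod Control replicate 1 or 2, and to 1291 and 1016 without QSC replicate 1 or 2.

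Ror1, with 4 members, had 28.5 and 21.1 kb covered in QSC, 10.7 and 7.51 kb in ASC, 10.1 and 9.20 kb in LncMyod Control and 11.6 and 7.91 kb in LncMyod Knockdown. QSC libraries lay above all others, and control fell by 1.31 ± 0.24 (SE) against QSC, with a limma adjusted p of 0.014. Its 4 members lay in a locus that had less covered length in culture than in QSC. Myog went the other way, with 1.5 and 2.40 kb in QSC, 2.39 and 2.76 kb in ASC, 5.63 and 4.84 kb in LncMyod Control and 5.33 and 4.30 kb in LncMyod Knockdown. Control rose by 1.25 ± 0.20 (SE), with a limma adjusted p of 0.010. Tln2, which codes for talin 2 of the muscle attachment complex, rose by 0.62 ± 0.08 (SE) with a limma adjusted p of 0.006, and Arhgap26 fell by 0.79 ± 0.11 (SE) with 0.007. These genes, except Ror1 and Myog, were chosen after their values were seen.

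Some loci with members had covered length in QSC and culture above that in ASC, as the rule favours. Dgkg had 7.78 and 8.11 kb in QSC, 2.41 and 4.23 kb in ASC, 8.47 and 6.77 kb in LncMyod Control and 8.22 and 6.54 kb in LncMyod Knockdown. The ASC libraries were the lowest, and the other 6 overlapped. Trdn had 2.83 and 3.02 kb in QSC, 0.965 and 0.018 kb in ASC, 3.45 and 3.48 kb in control and 3.04 and 1.79 kb in knockdown. Foxp1, in contrast, had 26.1 and 26.5 kb in QSC, 22.8 and 21.2 kb in ASC and 27 and 27.9 kb in control. The ASC libraries were again the lowest, by a smaller margin. Nav2 did not separate the groups, with 31.8 to 33.5 kb in QSC and ASC and 29.6 to 36.7 kb in culture.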

How the data were processed

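ATAC-seq libraries of mouse satellite cells were used as the broad peak lists that the authors deposited, 1 list per library. The submitters' processing notes name the build mm10 and MACS2 2.1.1, Bowtie2 2.3.2, Trimmomatic 0.36, Picard 2.9.2, bedtools 2.26.0, SAMtools 1.3 and bcl2fastq 2.19, with no settings. Any Tn5 shift of read ends was not given in the sources used here. In the deposited lists a peak has a fold enrichment over local background, a −log10 p, a −log10 q and a display score, which are the authors' values. They were never compared between lists as a measure of change.

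Merging, counting and motif search used python 3.11.15 with numpy 2.4.6 and pandas 2.3.3, and locus tests limma 3.58.1 in R 4.3.3. Gene positions and promoter windows came from RefSeq tables of GRCm38.p6. The limma fit covered all 8 libraries with 4 group means, at loci where 2 or more libraries covered 200 bp or more. Region merging and the limma fit were tested on simulated data. Motif letters were searched in promoter windows only, and the table used has none on chromosome 18. Depth is unknown, and intervals cover counting error only.

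The members and gene lists were chosen with earlier results of these data known. Named genes were the 20 protein-coding genes with the most members, ties broken by members per 100 kb, and up to 4 genes of each list. Named regions were the 10 members, and the 5 at protein-coding starts, whose weakest choosing peak ranked highest, with those nearest the edges of the rule, of which 1 is not reported here. Exceptions are marked, and which of a gene's members is shown was chosen after its values were seen. Alternatives changed peak thresholds, list length, overlap, merging, scaling, pseudocount, locus, model and libraries.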

Additional observations from a re-analysis of the deposited data

How the results depend on the processing

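The number of members was 1701 with lists of equal length, and left-out libraries gave 3088 to 6366, the highest without ASC replicate 1. The share of members within 1 kb of a gene start was 3.13% with lists of equal length and 1.27% for protein-coding starts. The excess of the knockdown share over regions of control alone ranged from 2.85 to 11.6 points with libraries left out, with 11.6 and 10.3 without LncMyod Control replicate 1 or 2. The mean knockdown share was 69.6 to 82.7% over the alternatives that kept both knockdown libraries, and each of these alone gave 91.4 and 65.0%.

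Loci called between LncMyod Knockdown and LncMyod Control numbered 6. The count was 38 without scaling, 10 with quantile normalization, 10 with a pseudocount of 2000 bp, 50 for the gene body alone, 3 with 50 kb on both sides, 0 at a −log10 q of at least 2, 23 with equal lists, 0 with only the compared groups, and 0 to 343 with libraries left out. Between LncMyod Control and QSC it was 7848 with 50 kb and 1016 to 1291 with libraries left out, against 4726. A lone remaining library is assumed to vary like the other groups. With the replicate number as a block, the counts were 0 and 4354. Same-numbered libraries deviated together by correlations of only 0.00783 to 0.0964, so they share a number and are not shown to be paired. The peak lists hold no depth, which limits every statement on absent peaks.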

Other observations

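The densest small loci were chosen after their values were seen. Dusp2, which codes for a nuclear phosphatase of MAP kinases, had 3 members among 4 regions. They lay 2844, 4446 and 8034 bp outside the gene and inside the neighbouring gene Astl. The nearest, chr2:127341221-127341687, had folds of 2.58 and 2.98 in QSC and 3.20 and 3.13 in LncMyod Control and no knockdown peak. E2f6, a repressor of the E2F family, had 3 members among 8 regions. The one inside the gene, chr12:16820579-16821279, had 3.89 and 3.08 in QSC, 4.01 and 4.12 in LncMyod Control and 3.49 and 2.61 in LncMyod Knockdown.

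Members made up 1.32% of the regions of chromosome 11 and 2.56% of those of chromosome 18, the ends of the range over chromosomes 1 to 19. The rule found 57 more members on chromosomes X and Y. Of 919 miRNA hairpins of the RefSeq table on chromosomes 1 to 19, 1 lay inside a member, that of Mir6417.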
